A study of Mus musculus with 23 samples.

Results

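Zinc finger proteins named Zfp in the mouse were followed in the prefrontal cortex between postnatal weeks 2 and 10. A gene was a member when the array's platform annotation gave a probe set a single symbol made of Zfp and a number, and when, of its probe sets, the one brightest on average over the 23 arrays reached a log2 value of at least 4 on at least 4 arrays. Of 173 such genes on the array 138 met the rule, out of 9197 genes in all that met the same limit. The other 35 were left out for low values, among them Zfp42, a marker of pluripotent stem cells, which had a mean of 2.70 and reached 4 on 0 arrays. Of the 138 genes, 121 were at 4 or above on all 23 arrays and 17 fell below it on some.

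The tissue was the prefrontal cortex of male wild-type C57BL/6 mice, cut about 3 mm behind the frontal pole, and each array held RNA from 1 animal. The ages were week 2 with 6 animals, week 3 with 4, week 4 with 4, week 5 with 5 and week 10 with 4. The labels name no treatment and give 1 strain and sex for all animals, so the labelled difference between groups is age, beside batch. The arrays were Affymetrix MOE430A chips, on which a set of short probes reports 1 transcript, and values are on the log2 scale, where a difference of 1 is a doubling.

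Most Zfp proteins carry C2H2 fingers, loops held by a zinc ion that read DNA bases in series. Many of them also carry a KRAB domain, which recruits the corepressor Trim28 and, through it, the histone methyltransferase Setdb1, so that bound DNA is packed into silent heterochromatin. KRAB genes sit in clusters of related neighbours and are known for silencing transposable elements and for keeping imprints. The name also covers proteins that bind RNA, such as the CCCH-type Zfp36 family, which shortens the life of mRNAs with AU-rich tails.

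Age and technical groups overlapped in these arrays. They were scanned on 7 days, numbered here in time order, and day 6 held the 4 week 3 arrays and nothing else, while day 5 held the 4 week 4 arrays and 1 of week 5. Batch 2, a label of the submitters, held 2 animals of week 2 and 2 of week 5. Day 7 held the 2 week 2 animals and 1 of the week 5 animals of that batch. Age and scan day cannot be told apart for weeks 3 and 4. Weeks 10 and 2 shared only day 4, with 1 array of each. The other week 2 arrays were scanned on days 3 and 7 and the other week 10 arrays on days 1 and 2, so these ages were largely split by scan day as well. RNA quality was followed by how much more signal the 3 prime end of actin gave than its 5 prime end, a log2 difference that grows as RNA is less complete. This actin difference was 2.25 to 2.28 in 3 of the 4 week 4 animals and 0.90 to 1.78 in the other 20 arrays. On days 6 and 7 it was 0.90 to 1.24, and on the other days 1.27 to 2.28, without overlap.

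The promoters of the genes whose change between weeks 10 and 2 held best are shown, since these are the regions from which their transcription starts. RefSeq promoter windows on the GRCm38.p6 assembly were found for 113 of the 138 genes, and the 250 bases before the start were searched on both strands. Of the 6 genes whose call held under all 19 alternatives and without each of the 23 arrays, 5 had a window, and Zfp362 had none in the table. Capitals mark matches to 3 motifs on either strand. The GC box was searched as the letters GGGCGG, the CCAAT box as the letters of its name, and the TATA box as the letters TATAAA. The first 3 genes fell with age and the other 2 rose.
Zfp282, chr6:47877305-47877554, plus strand: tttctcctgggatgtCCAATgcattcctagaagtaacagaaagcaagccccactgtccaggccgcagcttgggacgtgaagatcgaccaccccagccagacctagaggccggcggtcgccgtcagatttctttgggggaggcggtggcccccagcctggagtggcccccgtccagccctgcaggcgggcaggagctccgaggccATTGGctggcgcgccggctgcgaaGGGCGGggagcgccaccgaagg
Zfp46, chr4:136284426-136284675, plus strand: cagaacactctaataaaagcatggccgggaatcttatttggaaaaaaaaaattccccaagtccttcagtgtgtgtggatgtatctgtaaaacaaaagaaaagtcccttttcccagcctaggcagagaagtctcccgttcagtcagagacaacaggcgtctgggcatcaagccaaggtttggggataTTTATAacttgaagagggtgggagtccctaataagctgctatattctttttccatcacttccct
Zfp318, chr17:46383516-46383765, plus strand: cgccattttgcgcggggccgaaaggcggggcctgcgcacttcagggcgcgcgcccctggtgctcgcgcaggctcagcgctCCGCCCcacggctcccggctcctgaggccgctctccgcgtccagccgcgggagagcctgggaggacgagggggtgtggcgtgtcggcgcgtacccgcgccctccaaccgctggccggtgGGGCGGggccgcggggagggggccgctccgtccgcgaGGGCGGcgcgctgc
Zfp622, chr15:25984116-25984365, plus strand: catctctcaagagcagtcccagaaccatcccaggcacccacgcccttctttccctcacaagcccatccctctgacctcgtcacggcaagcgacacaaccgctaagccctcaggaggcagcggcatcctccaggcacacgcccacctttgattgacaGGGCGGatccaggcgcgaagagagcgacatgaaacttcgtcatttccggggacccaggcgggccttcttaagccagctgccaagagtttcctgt
Zfp106, chr2:120563860-120564109, minus strand: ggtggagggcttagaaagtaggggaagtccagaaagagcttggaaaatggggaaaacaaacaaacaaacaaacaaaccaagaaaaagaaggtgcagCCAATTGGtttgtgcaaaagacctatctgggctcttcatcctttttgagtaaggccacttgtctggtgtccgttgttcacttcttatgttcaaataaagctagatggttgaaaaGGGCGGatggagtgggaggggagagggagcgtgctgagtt

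These windows had no common motif content. Zfp318 had 3 GC boxes and 79.6% G and C, Zfp282 and Zfp106 each had 1 GC box and 2 CCAAT boxes, and Zfp622 had 1 GC box. Zfp46 had a TATA box and 43.2% G and C in the window shown, which was 1 of 2 listed for that gene. Over all 139 windows of the Zfp genes, 46.8% held a GC box, against 32.7% of all 32851 windows. A CCAAT box was in 47.5% of the Zfp windows and 33.9% of all windows, and a TATA box in 7.91% and 12.4%. The median content of G and C was 56.4% in the Zfp windows and 52.4% in all windows, and the median number of CG dinucleotides was 13 and 6. The letters ACTACAAT, the core of the site read by the zinc finger protein ZNF143 in human, were in only 4 of the 139 Zfp windows (2.88%) and in 0.667% of all windows. Of the other motifs searched, the E-box, as CACGTG, was in 5.04% of the Zfp windows and 6.02% of all windows. The cyclic AMP response element, as TGACGTCA, was in 0.719% and 1.55%. The core of the NRF1 site, as CGCATGCG, was in 5 of the Zfp windows (3.60%) and in 1.55% of all windows. The letters CTCGCGAG were in 0.719% and 0.761%. A match is a run of letters and no evidence of binding.

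Most Zfp genes, like most genes on the array, differed little between the ages. The mean of the age with the highest value exceeded that of the age with the lowest by a median of 0.30 log2 units for the 138 genes and 0.31 for all 9197 genes. For 115 of the 138 this range was under 0.5 (83.3%, against 77.9% of all genes), and for 5 it was at least 1 (3.62%, against 4.28%), namely Zfp955b, Zfp148, Zfp207, Zfp282 and Zfp651. A gene was called when its limma p, adjusted over all 16103 probe sets tested, was under 0.05, and 36 of the 138 genes were called in a comparison of ages or by the F-test over the 5 ages (26.1%, against 36.2% of all genes).

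The F-test called 31 Zfp genes, which is 22.5%, against 31% of all genes. Between weeks 10 and 2, 16 of 138 were called (11.6%, against 18.5% of all genes), 8 of them higher (5.8%, against 7.12%) and 8 lower (5.8%, against 11.4%). Centring the arrays on their medians gave 12 higher and 5 lower in that comparison, and after quantile normalisation 12 and 6. Over all 16103 probe sets the split was 1031 higher and 1717 lower, with arrays centred 1388 and 1340, and after quantile normalisation 1473 and 1398. Between weeks 3 and 2, 17 were called (12.3%, against 15.2%), with 11 higher (7.97%, against 5.63%) and 6 lower (4.35%, against 9.61%). After quantile normalisation the split was 13 higher and 5 lower, and over all probe sets 1153 and 1196 in place of 1074 and 1496. Between weeks 4 and 3, 12 were called (8.7%, against 9.73%), with 4 higher (2.9%, against 5.47%) and 8 lower (5.8%, against 4.26%). That split was 8 and 6 with arrays centred and 6 and 9 after quantile normalisation. Over all probe sets it was 784 and 1055, with arrays centred 1440 and 948, and after quantile normalisation 937 and 1065. Between weeks 5 and 4 limma called 0 Zfp genes (against 0.0761% of all genes), with 12 of 138 at an unadjusted p under 0.05 (against 1103 of 9197 genes). Between weeks 10 and 5 it called 0 (against 0.0435%), with 11 of 138 at that level (against 508 of 9197 genes). The median change of the Zfp genes between weeks 10 and 2 was 0.04, and that of all genes was 0.01.

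**Figure D1:**
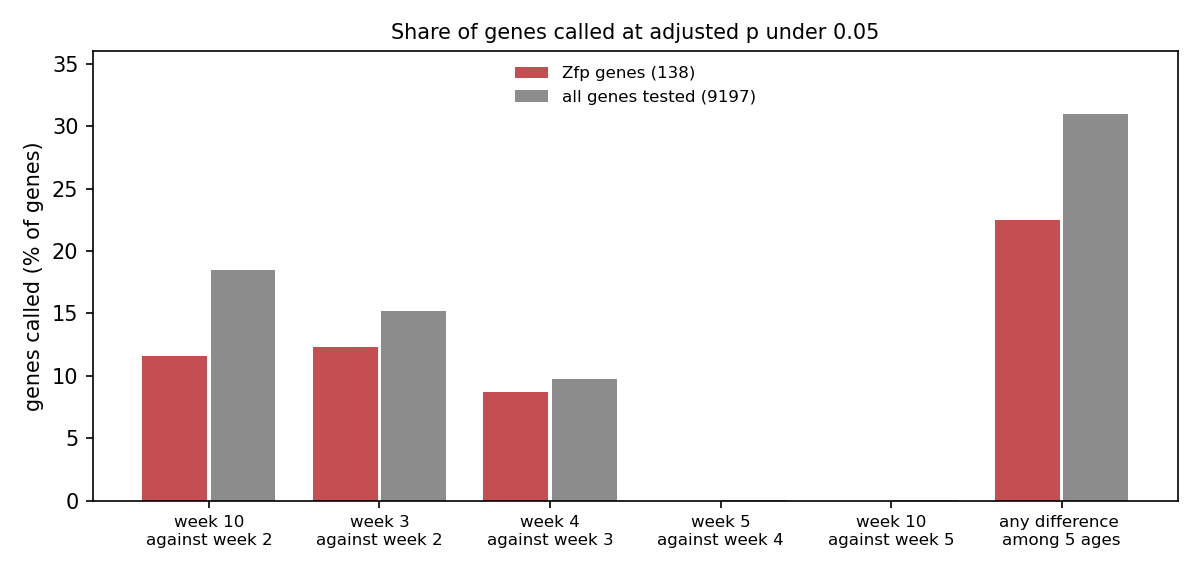
Percent of genes called at adjusted p under 0.05 (vertical axis, from 0) in each comparison and by the F-test, for the 138 Zfp genes (left bar) and all 9197 genes tested (right bar). The Zfp share was 11.6% against 18.5% between weeks 10 and 2, and both bars are at or close to 0 in the last comparisons of neighbouring ages.

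The genes that fell between weeks 10 and 2 were Zfp282, Zfp46, Zfp362, Zfp318, Zfp651, Zfp286, Zfp410 and Zfp532. Those that rose were Zfp622, Zfp612, Zfp106, Zfp869, Zfp354b, Zfp37, Zfp329 and Zfp825. In 11 of these 16 the animals of both ages did not overlap, and over all 138 genes the animals did not overlap in 14 (10.1%, against 15.8% of all genes). On scan day 4, with 1 array of each age, all 16 had the direction of the fit, but these 2 arrays are part of the fit. Without them 12 of the 138 genes were called, against 2081 of all 16103 probe sets. Of these 12 genes 11 had the same direction on that day, a share that was not computed for all genes.

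**Figure D2:**
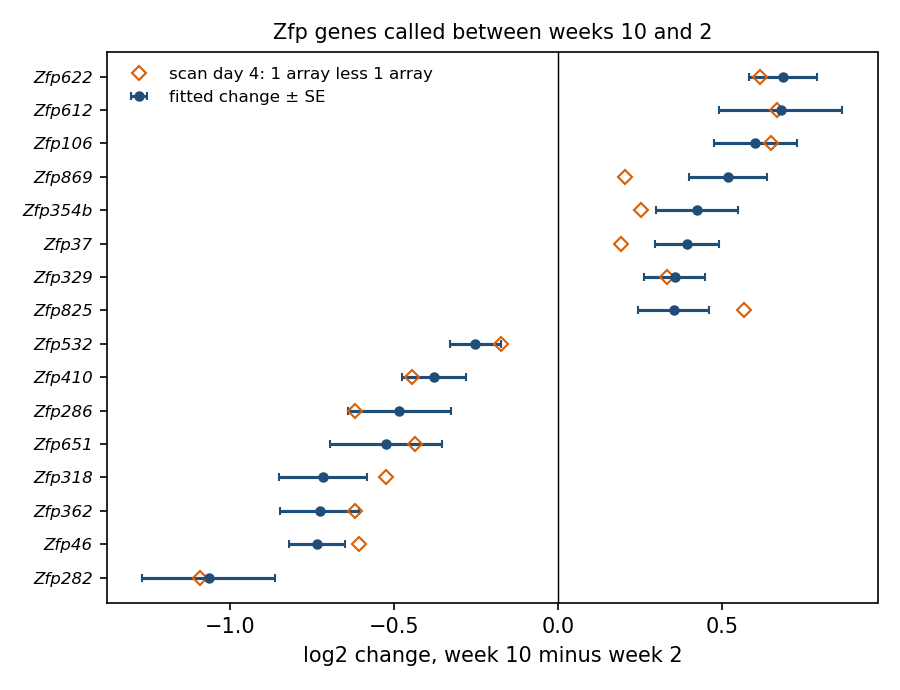
Log2 change between week 10 and week 2 (horizontal axis) of the 16 Zfp genes called, with circles for the fitted change and bars for its SE. Diamonds give the week 10 array less the week 2 array of scan day 4, both of which are among the arrays fitted. Values run between -1.07 for Zfp282 and 0.69 for Zfp622, and each diamond lies on the same side of 0 as its circle.

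Zfp282, a KRAB zinc finger gene, had the largest fall of the called genes between weeks 10 and 2. Its log2 value was 5.24, 5.75, 6.29 and 5.93 in the week 10 animals, against a lowest of 6.37, a median of 7.16 and a highest of 7.71 in the week 2 animals. Every week 10 animal was below every week 2 animal, and weeks 3, 4 and 5 lay between them with means of 6.47 ± 0.24 (SD, n = 4), 6.25 ± 0.07 (n = 4) and 6.21 ± 0.15 (n = 5). The fitted change between weeks 10 and 2 was -1.07 ± 0.20 (SE), a 2.09-fold lower level, with a limma adjusted p of 0.000897. The other kept probe set of Zfp282, 1424298_at, was at 4.62 to 4.79 at week 10 and 4.45 to 4.86 at week 2, and its change was 0.04 ± 0.14.

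Zfp46, whose probe set had the highest mean of all 138, was lower in every week 10 animal than in any week 2 animal. Its values were 9.86, 9.90, 9.57 and 9.68 at week 10, against a lowest of 10.29, a median of 10.49 and a highest of 10.60 at week 2. The change was -0.74 ± 0.09 (SE, 1.67-fold lower, adjusted p = 4.58e-06), the smallest adjusted p of the Zfp genes in any comparison of ages. Most of this was already present at week 3, with 9.92 to 10.16 and a change of -0.46 ± 0.09 from week 2 (adjusted p = 0.00138). Weeks 4 and 5 had means of 9.80 ± 0.07 (n = 4) and 9.95 ± 0.13 (n = 5).

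Zfp362, the mouse relative of the fly patterning gene rotund, stood at 7.41, 7.27, 7.67 and 7.40 at week 10, against 7.84, 8.12 and 8.35 as the lowest, median and highest at week 2. The ages did not overlap, and the change was -0.73 ± 0.12 (SE, 1.66-fold lower, adjusted p = 0.000243). Week 5 reached down into the week 10 values, with 7.48 and 7.49 in 2 of its 5 animals.

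Zfp318, which in B cells controls the splicing that gives IgD beside IgM, fell as well. It had 6.57, 6.50, 6.81 and 6.82 at week 10, against a lowest of 7.11, a median of 7.49 and a highest of 8.03 at week 2. No animal overlapped, and the change was -0.72 ± 0.13 (SE, 1.64-fold lower, adjusted p = 0.000787). Its 3 other probe sets changed by -0.24, -0.21 and -0.21, and none of these was called.

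Zfp622 takes part in the ripening of the large ribosomal subunit and rose. It was at 9.33, 9.03, 9.04 and 8.89 at week 10, against a lowest of 8.28, a median of 8.37 and a highest of 8.58 at week 2. All week 10 animals were above all week 2 animals. On the representative probe set, 1438000_x_at, the change was 0.69 ± 0.10 (SE, 1.61-fold higher, adjusted p = 8.56e-05). Affymetrix uses that suffix for probes shared between transcripts. On it 0.36 ± 0.10 of the change was present at week 3 (adjusted p = 0.0201), a call lost under 4 alternatives and without week 3 animal 3, 5 or 6. The other probe set of Zfp622, 1425030_at, also rose, with 7.23 to 7.46 at week 10 and 6.96 to 7.18 at week 2 and a change of 0.29 ± 0.08 (adjusted p = 0.0135). Between weeks 3 and 2 the change on 1425030_at was 0.005 ± 0.08 and was not called.

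Zfp106, an RNA-binding protein that mouse motor neurons need to survive, rose on 2 of its 3 kept probe sets. The representative one was at 10.38, 10.04, 10.13 and 10.17 at week 10, against a lowest of 9.24, a median of 9.63 and a highest of 9.79 at week 2. The ages did not overlap. On this probe set the level of week 10 was already reached at week 4 with a mean of 10.28 ± 0.07 (SD, n = 4). The change between weeks 10 and 2 was 0.60 ± 0.13 (SE, 1.52-fold higher, adjusted p = 0.00207). On 1425331_at it was 0.54 ± 0.18 (adjusted p = 0.0454), and on 1425097_a_at 0.16 ± 0.15, which was not called. Week 4 was not high on 1425331_at, with a mean of 7.94 ± 0.50 (SD), against 8.15 at week 2 and 8.68 at week 10.

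**Figure D3:**
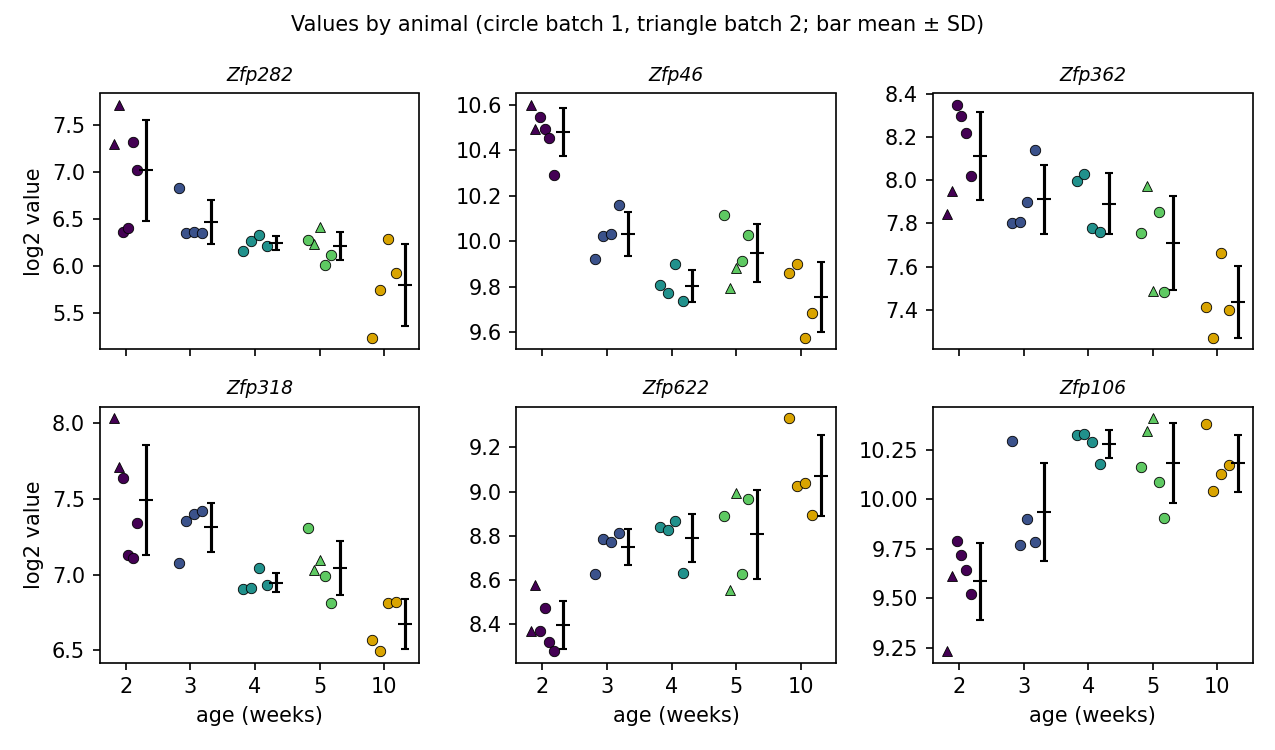
Log2 value of each animal (vertical axis, scaled per gene) by age in weeks for the 6 Zfp genes whose change between weeks 10 and 2 was called under every setting tried. Circles are batch 1, triangles batch 2, and bars the mean ± SD of an age. The week 10 animals of Zfp282, Zfp46, Zfp362 and Zfp318 lie below, and those of Zfp622 and Zfp106 above, all week 2 animals.

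The remaining called changes between weeks 10 and 2 were smaller or less even between animals. Zfp612 was at 6.75, 5.90, 6.09 and 6.40 at week 10, against a lowest of 4.41, a median of 5.65 and a highest of 5.84 at week 2, a change of 0.68 ± 0.19 (SE, adjusted p = 0.0166). Its ages did not overlap, but the call was lost without week 10 animal 1. Zfp869 changed by 0.52, Zfp37 by 0.39 and Zfp329 by 0.36. Zfp329 lost its call without week 10 animal 1. Zfp354b, at 5.34 in week 10 animal 1 and 4.54 to 4.82 in the other 3, changed by 0.42 and lost its call without that animal or without week 2 animal 6.

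Zfp410 is known in mouse and human cells as a direct activator of Chd4, a subunit of the NuRD chromatin remodelling complex. It fell by 0.38 ± 0.10 log2 units (SE, adjusted p = 0.0110), with 7.78 to 8.10 at week 10 and 8.05 to 8.46 at week 2, which overlapped. The call was lost with scan day as a fixed term, with the animal number as a block and without the scan day 4 arrays. Chd4 itself changed by -0.07 ± 0.08 between these ages and was not called. Zfp286, Zfp532 and Zfp651 fell and Zfp825 rose with adjusted p values of 0.0396, 0.0304, 0.0375 and 0.0294, and each was lost under 8 to 11 alternatives and in 4 to 7 of the fits without 1 array. Zfp286 was near the low-value limit, with all animals of weeks 4, 5 and 10 between 4.38 and 4.49.

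Fewer Zfp changes held between weeks 3 and 2. Zfp639 fell to 6.88, 6.69, 6.90 and 6.62 at week 3, against a lowest of 7.20, a median of 7.51 and a highest of 7.65 at week 2. No animal overlapped, and the change was -0.73 ± 0.10 (SE, adjusted p = 0.000265), called under all alternatives that could be fitted and without any 1 array. Later ages stood higher than week 3, with means of 7.11 ± 0.10 at week 4 (SD, n = 4), 7.31 ± 0.20 at week 5 (n = 5) and 7.33 ± 0.07 at week 10 (n = 4). The change of Zfp639 between weeks 10 and 2 was -0.16 ± 0.10 and was not called. Week 3 was scanned on a day of its own, and what part that had in the low week 3 values cannot be told apart from age.

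Zfp148, Zfp955b and Zfp322a had high values on scan days 6 and 7, which held arrays of weeks 2, 3 and 5 and none of weeks 4 and 10. The arrays of those days also had the lowest actin differences, so scan day and RNA quality cannot be told apart here. Zfp148, also called ZBP-89, binds GC-rich promoters. It was at 10.91, 10.93, 11.02 and 11.11 at week 3, against a lowest of 8.94, a median of 9.25 and a highest of 10.87 at week 2. The change was 1.70 ± 0.32 (SE, 3.25-fold higher, adjusted p = 0.00149), and the change between weeks 4 and 3 was -2.35 ± 0.34 (5.08-fold lower, adjusted p = 0.000114). The highest week 2 values came from the day 7 arrays, and the day 7 array of week 5 was at 11.18 while the other 4 week 5 animals were at 8.80 to 9.78.

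Over the 7 arrays of days 6 and 7 Zfp148 ranged between 10.76 and 11.18, and over the other 16 arrays between 8.21 and 9.78. Zfp955b did likewise, with 7.73 to 8.55 on those days and 5.18 to 6.70 on the others, and so did Zfp322a, a factor of mouse embryonic stem cells, with 8.15 to 9.05 and 7.43 to 8.09. On their representative probe sets, these were the only 3 of the 138 genes whose arrays of days 6 and 7 did not overlap the other days (2.17%, against 2.44% of all genes). Of the 49 other kept probe sets 6 did not overlap either (12.2%), those of Zfp207, Zfp24, Zfp36l1, Zfp445, Zfp280d and Zfp704, and all 6 were higher on days 6 and 7. The share over such further probe sets of all genes was not computed, and the 2.44% does not stand for it. Zfp955b changed by 1.71 ± 0.36 between weeks 3 and 2 (SE, adjusted p = 0.00281) and Zfp322a by 0.79 ± 0.20 (adjusted p = 0.0120). When the fit had 1 term for days 6 and 7 instead of batch, the change was -0.014 for Zfp955b, and Zfp148 and Zfp322a were no longer called. The 3 other probe sets of Zfp148 changed by 0.04, 0.15 and 0.56 between weeks 3 and 2, and none was called.

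**Figure D4:**
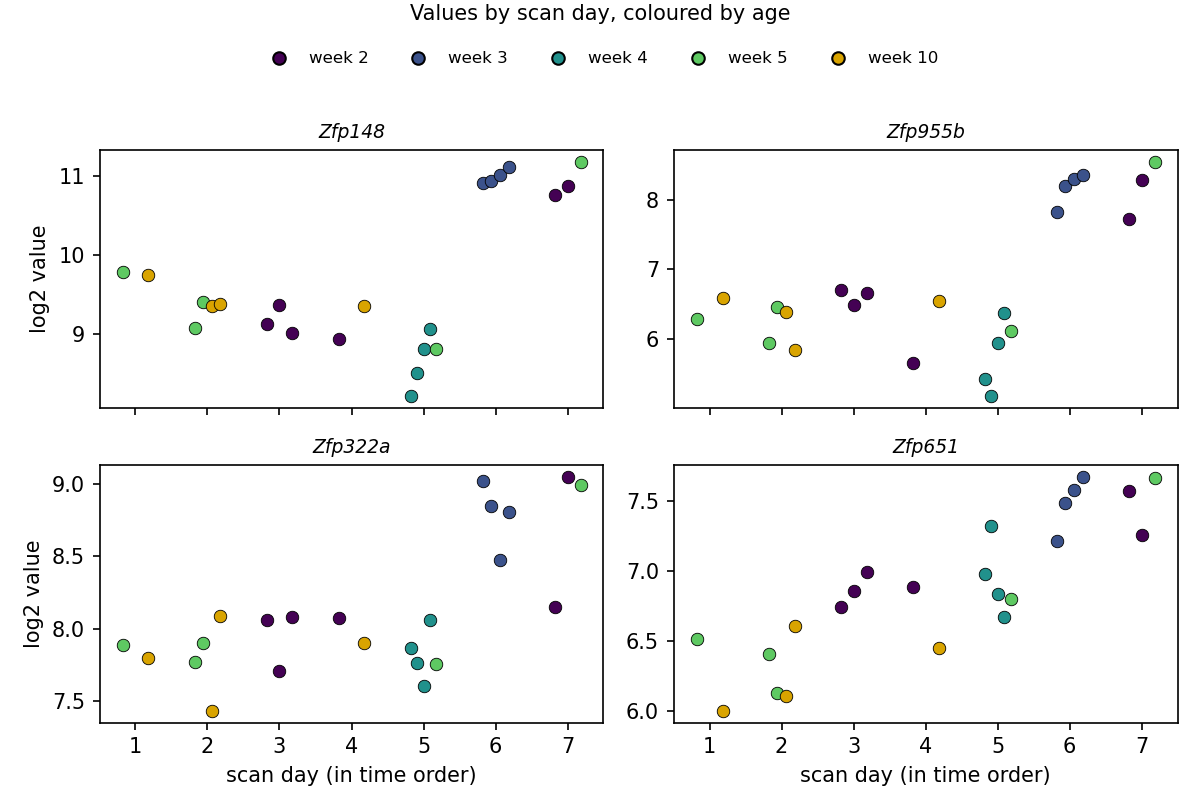
Log2 value of each array (vertical axis, scaled per gene) of 4 Zfp genes by scan day in time order (horizontal axis), coloured by age. Days 6 and 7 hold all week 3 animals, 2 of week 2 and 1 of week 5, and in Zfp148, Zfp955b and Zfp322a all 7 lie above the other 16 arrays. In Zfp651 they overlap the arrays of day 5.

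Zfp651 also lost its call between weeks 3 and 2 under that fit. Zfp651, a BTB zinc finger gene also named Zbtb47, was at 7.22 to 7.67 at week 3 and 6.74 to 7.57 at week 2, a change of 0.67 that became -0.092 with days 6 and 7 as 1 term. Zfp503, or Nolz1, a regulator of striatal neurons, was at 6.48, 6.35, 6.29 and 6.39 at week 3, against a lowest of 5.25, a median of 5.71 and a highest of 6.31 at week 2, which overlapped. It changed by 0.74 ± 0.17 (SE, adjusted p = 0.00519) and by -0.61 ± 0.17 between weeks 4 and 3 (adjusted p = 0.0258), and the first of these was not called with days 6 and 7 as 1 term or under either random block. The change between weeks 3 and 2 was between 0.52 and 0.83 under all alternatives and without each array. Zfp503 was at 6.31 and 5.52 in the week 2 animals of day 7 and at 5.67 in the week 5 animal of that day, so that 1 of the 3 day 7 arrays was near the week 3 values. The second of these calls was lost in 5 fits without 1 array, those without week 3 animal 2, 3 or 6 or week 4 animal 1 or 3. Its other probe set rose too, by 0.57 (adjusted p = 0.0441).

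The striatum lies next to the dissected tissue, and 5 of the 9 striatal markers listed were measured. None was called by limma between weeks 3 and 2, but their median change was 0.90. Their mean over the list was 9.63 to 10.33 per array at week 3 and 8.57 to 10.16 at week 2, and their part in the Zfp503 result was not tested. Zfp280d rose by 0.57 ± 0.09 (SE, adjusted p = 0.000493) and Zfp385a, an RNA-binding protein that also steers p53, by 0.53 ± 0.11 (adjusted p = 0.00319) between weeks 3 and 2. Both are outside the first 5 of that comparison, and Zfp280d was among the lowest F-test p values. Zfp280d was at 8.36 to 8.99 on scan days 6 and 7 and at 8.02 to 8.37 on the other days, and its other probe set, 1457455_at, at 6.72 to 7.81 and 5.83 to 6.64. Zfp385a was at 8.84 to 9.33 on those days and 8.40 to 9.27 on the others. With days 6 and 7 as 1 term neither was called between weeks 3 and 2, nor with a random block for scan day instead of batch.

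Of the genes that fell between weeks 3 and 2, Zfp445 maintains imprints together with Zfp57 in mouse. It was at 7.93, 8.28, 8.17 and 8.06 at week 3, against a lowest of 8.60, a median of 8.72 and a highest of 8.93 at week 2, without overlap. The change was -0.61 ± 0.15 (SE, adjusted p = 0.00773). Its other probe set, 1427254_at, went the other way, with 9.05 to 9.30 at week 3 and 7.96 to 9.37 at week 2 and a change of 0.86 ± 0.28 (adjusted p = 0.0420). On that probe set the arrays of days 6 and 7, from weeks 2, 3 and 5, were at 8.998 to 9.43, and the others at 6.18 to 8.57. With both probe sets averaged the change of Zfp445 was 0.13. On the representative probe set days 6 and 7 were at 7.93 to 8.72 and the other days at 7.99 to 8.93, which overlapped. Zfp57 itself changed by -0.08 ± 0.10 between weeks 3 and 2 and by -0.22 ± 0.10 between weeks 10 and 2, neither of which was called.

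All 7 genes called both between weeks 3 and 2 and between weeks 4 and 3 had opposite signs in them. Both comparisons share the 4 week 3 arrays. Between weeks 4 and 3 Zfp955b changed by -2.44 ± 0.37 (SE, adjusted p = 0.000178) and Zfp322a by -0.96 ± 0.21 (adjusted p = 0.00469). Zfp239, Zfp639 and Zfp943 were higher at week 4 by 0.36, 0.34 and 0.34, with adjusted p values of 0.0430, 0.0431 and 0.0490. With the actin difference as a covariate limma called 0 Zfp genes and 0 of all 16103 probe sets between weeks 4 and 3, where it called 1839 probe sets without it. That difference was 1.07 to 1.24 in the week 3 animals and 1.50 to 2.28 in the week 4 animals, without overlap. The covariate therefore runs along with these ages, and this fit cannot separate RNA quality from age. The count of 12 became 5 without week 3 animal 3 or without week 4 animal 1, and 7 without week 4 animal 3. Zfp943 lost its call in 15 of the 23 fits that left out 1 array, Zfp639 in 10 and Zfp239 in 6.

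Zfp189, whose activation in the prefrontal cortex has been tied to stress resilience in mice, was at 7.08, 6.58, 6.83 and 7.01 at week 4, against 6.55, 5.86, 6.03 and 6.24 at week 3. All week 4 animals were above all week 3 animals, and the change was 0.70 ± 0.18 (SE, adjusted p = 0.0158). Week 2 lay between with a median of 6.50. The call was lost under 5 alternatives and without week 3 animal 3, week 3 animal 5 or week 4 animal 1.

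Zfp207, or BuGZ, a protein of the mitotic spindle that also takes part in splicing, differed between its probe sets. On the representative one it was at 7.68, 7.06, 8.07 and 8.97 at week 4, against 9.01, 9.55, 9.76 and 9.85 at week 3, a change of -1.59 ± 0.28 (SE, 3.02-fold lower, adjusted p = 0.000673). The ages did not overlap, and the 8.97 came from animal 6, the week 4 animal with the lower actin difference of 1.50. The other 3 week 4 animals had the differences of 2.25 to 2.28. The call was lost under 4 alternatives: the actin covariate, days 6 and 7 as 1 term, and both random blocks for scan day. The covariate fit cannot separate RNA quality from age here, since the actin differences of weeks 3 and 4 did not overlap. The part of RNA quality in this result was not otherwise tested.

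On 1423545_a_at, Zfp207 was at 8.81 to 9.05 at week 10 and 9.46 to 9.68 at week 2, with no overlap and a change of -0.65 ± 0.09 (adjusted p = 5.33e-05). The same probe set changed by -0.55 ± 0.09 between weeks 3 and 2 (adjusted p = 0.000776), and no animal of weeks 3, 4 or 5 was above 9.30. On 1434752_at the change was 1.73 ± 0.38 between weeks 3 and 2 and -2.38 ± 0.39 between weeks 4 and 3, and the arrays of days 6 and 7 were at 6.32 to 7.99 and the others at 4.74 to 6.22. On 1455092_at none of these 3 comparisons was called. The 4 probe sets of Zfp207 therefore did not share a course over the ages.

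**Figure D5:**
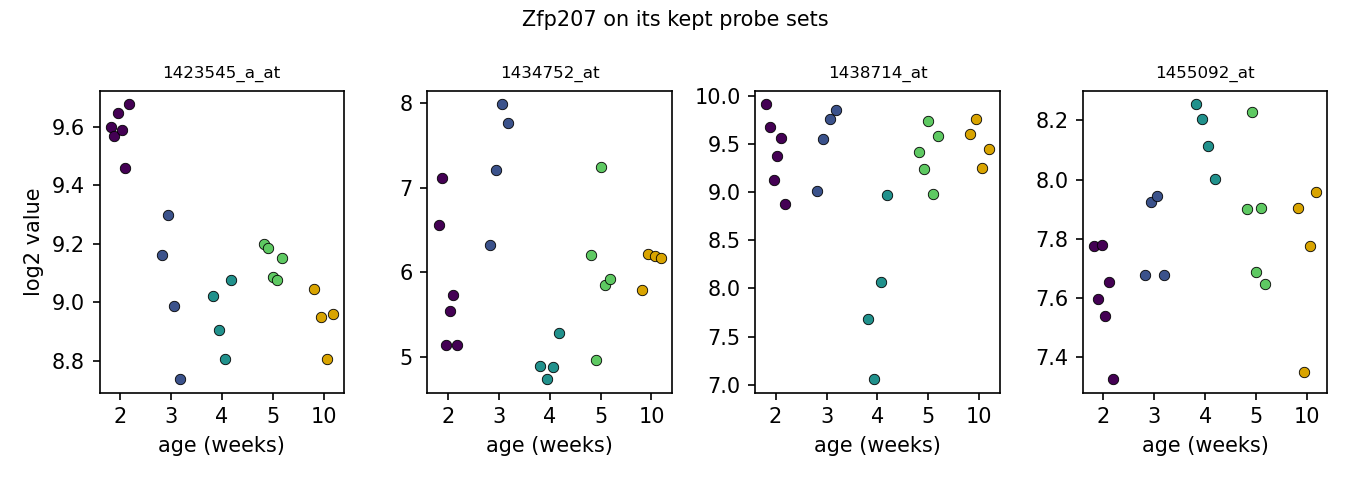
Log2 value of each animal (vertical axis, scaled per panel) by age in weeks on the 4 kept probe sets of Zfp207. Week 4 is low on 1438714_at, with 7.06 to 8.97, and week 2 is high on 1423545_a_at, with 9.46 to 9.68.

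Disagreement between probe sets was not limited to Zfp207. Of the 138 genes, 34 had further kept probe sets, 49 in all. For genes called between weeks 10 and 2, 11 of 12 further probe sets had the same sign and 2 were called. Between weeks 3 and 2 these counts were 8 of 10 with 2 called, and between weeks 4 and 3 they were 7 of 10 with 2 called. Zfp36l1, which was not called in a comparison of ages on its representative probe set, had a second one, 1422528_a_at, whose change was 1.12 ± 0.15 between weeks 3 and 2 and -1.09 ± 0.16 between weeks 4 and 3. That probe set was at 4.68 to 5.29 on days 6 and 7 and at 3.55 to 4.19 on the other days. Zfp91, a ubiquitin ligase, changed by 0.06 ± 0.10 between weeks 4 and 3 on its representative probe set and by -0.99 ± 0.11 on 1426326_at (adjusted p = 4.66e-05), where days 6 and 7 were at 7.70 to 8.16 and the other days at 6.82 to 7.71. Zfp24, needed for myelination in mouse, changed by 0.03 ± 0.13 and by -1.48 ± 0.32 on 1426896_at (adjusted p = 0.00351), where days 6 and 7 were at 6.64 to 7.07 and the other days at 4.62 to 6.08.

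Genes of the family with a role of their own were also followed whatever their values, and 28 of 45 listed were measured. Of these, 11 of 28 were called in some comparison or by the F-test, beside the 36.2% of all genes given above. Among the CCCH genes of mRNA decay, Zfp36l2 was at 7.67, 7.92, 7.69 and 7.77 at week 4, against 8.05, 8.15, 8.30 and 8.11 at week 3, and fell by 0.39 ± 0.11 log2 units (SE, adjusted p = 0.0276). The ages did not overlap, and at week 10 the values were 8.14 to 8.46. The call was lost under 6 alternatives, the actin covariate among them, and without week 3 animal 3 or 5 or week 4 animal 1 or 3. Zfp36l1 changed by -0.42 ± 0.15 between weeks 10 and 2, with an adjusted p of 0.0578 that missed the threshold, and Zfp36 by 0.16 ± 0.09.

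Other genes known from the brain or from stem cells showed small differences. Zfp281, a factor of pluripotent cells with one of the highest means of the family, had 9.81 ± 0.09 at week 10 and 9.80 ± 0.04 at week 2 (SD, n = 4 and 6), a change of 0.04 ± 0.08 (SE). Zfp91 had 9.98 ± 0.17 and 9.99 ± 0.07. Zfp871, also among the highest means, changed by -0.02 ± 0.08, and Zfp346, which binds double-stranded RNA, by -0.01 ± 0.08. Zfp423 and Zfp521, relatives that bind the neuronal factors of the EBF family, changed by 0.15 ± 0.11 and -0.09 ± 0.33. Zfp521 spread more between animals than most, with an SD of 0.98 at week 10. Zfp110, which binds the p75 neurotrophin receptor, changed by 0.09 ± 0.11, and Zfp598, which marks stalled ribosomes, by 0.03 ± 0.17. None of these was called between weeks 10 and 2.

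The same was true of Zfp292, at 0.17 ± 0.10, Zfp326 at -0.25 ± 0.21, Zfp644 at -0.03 ± 0.13, Zfp703 at 0.16 ± 0.12 and Zfp24 at 0.07 ± 0.12. Zfp354a, Zfp354c and Zfp467 had mean values of 3.84, 4.00 and 4.38 at week 10, near the low-value limit, and were not called. Zfp330 fell by 0.31 between weeks 3 and 2 (adjusted p = 0.0311), a call lost under 6 alternatives and in 5 of the fits without 1 array, and had a change of -0.01 ± 0.09 between weeks 10 and 2.

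The proteins through which KRAB zinc fingers silence DNA were taken as a list of 39 genes, of which 28 were measured. Between weeks 10 and 2, 2 of 28 were called higher (against 7.12% of all genes) and 4 lower (against 11.4%). The median change was -0.09 against 0.01 for all genes. Trim28, the corepressor itself, had 9.35 ± 0.12 at week 10 (SD, n = 4) and 9.69 ± 0.15 at week 2 (n = 6), with no overlap between 9.18 to 9.47 and 9.48 to 9.89, and changed by -0.32 ± 0.09 (SE, adjusted p = 0.0174). Setdb1, the methyltransferase it recruits, changed by -0.18 ± 0.08 and was not called. Atf7ip, the partner that stabilises Setdb1, fell by 0.83 ± 0.16 (adjusted p = 0.000910).

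Dnmt3a, which lays down new DNA methylation, had the largest change of the list, with 7.70 to 8.38 at week 10 and 10.04 to 10.53 at week 2 and a change of -2.03 ± 0.13 (adjusted p = 1.97e-09). Mta1, a NuRD subunit, fell by 0.36, while Mbd2, which reads methylated DNA, and the SUMO ligase Pias1 rose by 0.40 and 0.43. Between weeks 3 and 2, 2 of the 28 were called higher (against 5.63% of all genes) and 2 lower (against 9.61%). Between weeks 4 and 3 it was 2 higher (against 5.47%) and 3 lower (against 4.26%).

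C2H2 regulators with other names, of which 51 of 80 listed were measured, showed 2 called higher and 1 lower between weeks 10 and 2. Of all genes 7.12% were called higher and 11.4% lower. Between weeks 3 and 2, 5 of 51 were called, each of them higher (against 5.63% of all genes higher and 9.61% lower). Between weeks 4 and 3, 5 of 51 were called, each of them lower (against 4.26% of all genes lower and 5.47% higher). Sp1 was among both, with a change of 2.15 and then -2.57, and Zeb2 with 2.07 and -2.85. Sp1 was at 7.49 to 8.24 on scan days 6 and 7 and 4.99 to 6.33 on the other days, without overlap. Zeb2 was at 9.43 to 10.07 and 6.49 to 8.07, without overlap either. Of the 7 genes of the list called in either comparison, Sp1, Zeb2 and Hivep3 had no overlap between those days and the others. Between weeks 4 and 3, 2 of all 16103 probe sets were called with days 6 and 7 as 1 term, and 0 with the actin covariate. Both terms run along with these ages, so neither fit can separate them from age.

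The 138 genes lay on 19 chromosomes, with 27 on chromosome 7, 22 on chromosome 17 and 16 on chromosome 8. Against 36 of 138 over all chromosomes (26.1%) and 36.2% of all genes, 1 of 27 on chromosome 7 was called in any comparison of ages or by the F-test, on chromosome 17 it was 6 of 22, and on chromosome 8 it was 4 of 16. In 13 runs, 34 Zfp genes stood next to each other in the RefSeq order of genes. The longest, of Zfp111, Zfp109, Zfp108, Zfp93 and Zfp61 on chromosome 7, of 5 genes, held no called gene. The run of Zfp51, Zfp53, Zfp52 and Zfp948 on chromosome 17 held 2, of which Zfp948 fell between weeks 3 and 2 by 0.45 ± 0.12 (SE, adjusted p = 0.0148) and lost its call without week 3 animal 2. Neighbours in such runs are related in sequence, and for 24 genes the representative probe set carried a suffix that Affymetrix uses for probes shared between transcripts.

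Batch 1 and batch 2 differed in 7 of the 138 genes, namely Zfp148, Zfp280d, Zfp329, Zfp385a, Zfp612, Zfp651 and Zfp955b (against 4.10% of all genes). Markers of cell types differed between the ages as well. Of 10 markers of immature neurons 9 were lower at week 10 than at week 2, with a list mean of 8.68 to 8.92 and 10.12 to 10.79 per array. Of the markers of oligodendrocyte precursors 4 of 5 were lower (list mean 6.81 to 7.20 and 7.83 to 7.997), and of those of endothelium 4 of 6 (6.34 to 6.45 and 6.73 to 7.11). Mature neuron markers had 2 of 8 higher and 1 lower, and their list mean was 10.18 to 10.91 and 10.48 to 10.82. Of astrocyte markers 2 of 8 were higher and 3 lower, of oligodendrocyte markers 1 of 7 was higher while the median change of the list was -0.40, and of microglial markers 1 of 7 was higher. Of the 5 striatal markers measured 0 were called between weeks 10 and 2, with a list mean of 8.60 to 10.46 and 8.57 to 10.16 per array. At week 5 the striatal list mean ran between 6.93 and 10.31. Snap25, 1 of the mature neuron markers, had a mean of 14.46 at week 10 and 13.82 at week 2, while the mean of that list was 10.67 and 10.69. In bulk tissue, fewer cells of a type and less RNA per cell cannot be told apart, and the part of cell types in the Zfp changes was not tested.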

How the data were processed

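The deposited table held GCRMA values in log2 units for 22690 probe sets on 23 arrays. Per the labels the authors used GCRMA, which corrects background by probe sequence, normalises quantiles and summarises each probe set, and its version is not given in the sources used here. The scanner records deposited with each array gave the scan day, and other columns of those records were not used. Values were used as deposited. Arrays have no read depth, so their number limits the precision, and array medians lay between 6.15 and 6.27.

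Age and batch came from the titles. Title and description disagree on the batch of week 2 animal 5 (1 and 2), and the title was followed. Week 5 animal 2 occurs in both batches and was counted as 2 animals. Same-numbered animals of different ages did not deviate together (25 pairs, correlation -0.524 to 0.292, median -0.122), and per the labels each array is an independent animal, so the numbers did not pair the samples.

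Probe sets were tested if 4 or more arrays had a value of 4 or higher. This left 16103, and 64 control probe sets stayed out. Of all probe sets 20393 had 1 symbol in the platform annotation, 691 several and 1606 none. All 138 Zfp genes matched RefSeq through Entrez identifiers, and 0 had another current symbol. Zfp probe sets with 1 symbol numbered 254, of which 188 were kept, and 16 with several symbols were not named.

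A single two-sided fit of all 23 arrays by lmFit and eBayes (limma 3.58.1, R 4.3.3) had 1 mean per age and a batch term, with Benjamini-Hochberg adjustment over all 16103. The fit was tested on simulated data. Shares of all genes used 1 probe set a gene. The text names up to 12 called genes in each direction between weeks 10 and 2, up to 5 in the other comparisons, the 8 with the lowest F-test p, the 5 with the highest mean, the listed genes with known roles, and up to 6 called genes of each list. Genes named outside this rule, such as Zfp280d and Zfp385a between weeks 3 and 2, Chd4 and Setdb1, were chosen after their values were seen. The members and lists were chosen with earlier results of these data known. Tables were handled in Python 3.11.15 with pandas 2.3.3.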

Additional observations from a re-analysis of the deposited data

Results flagged for a closer look

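Of 250 groups of 1 named Zfp gene at 1 age, 23 had a highest or lowest animal that stood apart by Dixon's criterion, and chance flags about 1 in 20 such groups. Log2 values follow, beside the range of the other animals of that age.

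In week 10 animal 1, which shared scan day 1 and a chip lot of its own with week 5 batch 1 animal 2, Zfp148 was at 9.75 (others 9.35 to 9.38), Zfp330 at 9.08 (8.60 to 8.66) and Zfp354a at 4.54 (3.53 to 3.69). In week 5 batch 1 animal 2, Zfp110 was at 5.14 (4.57 to 4.71), Zfp445 at 8.15 (8.66 to 8.75) and Zfp467 at 3.31 (4.34 to 4.74).

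In week 5 batch 2 animal 4, scanned on day 7, Zfp955b was at 8.55 (5.94 to 6.45), Zfp322a at 8.99 (7.76 to 7.90), Zfp346 at 8.28 (8.398 to 8.44) and Zfp943 at 6.83 (7.14 to 7.26). On the same day, Zfp322a was at 9.05 in week 2 batch 2 animal 2 (7.71 to 8.15), and Zfp281 at 9.72 (9.79 to 9.83) and Zfp943 at 6.42 (6.88 to 7.02) in week 2 batch 2 animal 1.

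In week 4, animal 6, the 1 with the lower actin difference, had Zfp24 at 8.73 (8.36 to 8.41) and Zfp622 at 8.63 (8.82 to 8.86). Zfp292 was at 8.40 in animal 1 (8.16 to 8.19), Zfp36 at 6.45 in animal 2 (6.06 to 6.10) and Zfp943 at 7.11 in animal 3 (7.30 to 7.31).

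In the remaining groups, Zfp239 was at 7.96 in week 10 animal 7 (8.07 to 8.10), Zfp467 at 4.47 in week 10 animal 6 (4.35 to 4.36), Zfp57 at 4.53 in week 5 animal 8 (4.72 to 4.74), Zfp282 at 6.83 in week 3 animal 2 (6.35 to 6.36) and Zfp292 at 8.25 in week 3 animal 5 (8.09 to 8.11).

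The change between weeks 5 and 2 differed between the batches in Zfp948, where batch 2 less batch 1 was 0.74 (limma adjusted p = 0.0218), with a change of 0.39 in batch 2 and -0.35 in batch 1, from 2 animals of each age in batch 2.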

How the results depend on the processing

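Results were recomputed under 17 other settings, 2 more chosen after seeing the data (without the scan day 4 arrays and without week 4) and 23 fits without 1 array. Of 45 called changes of Zfp genes between ages 7 held in all of them that could be fitted, and these were the changes between weeks 10 and 2 of Zfp282, Zfp46, Zfp362, Zfp318, Zfp622 and Zfp106 and that of Zfp639 between weeks 3 and 2. The cause of the other losses was not tested. The counts below are of Zfp genes, with all 16103 probe sets in parentheses. Ranges over the fits without 1 array are given for Zfp genes alone. Between weeks 10 and 2, 3 and 2, 4 and 3, 5 and 4, and by the F-test, they were 16 (2748), 17 (2570), 12 (1839), 0 (12) and 31 (5085). A random block for scan day instead of batch gave 1 (112) between weeks 3 and 2, 0 (1) between weeks 4 and 3 and 11 (1811) by the F-test, and added beside batch it gave 5 (597), 2 (191) and 16 (2199). With scan days 6 and 7 as 1 term it was 7 (1158) between weeks 3 and 2, 0 (2) between weeks 4 and 3 and 1 (20) between weeks 5 and 4. A fixed scan day term, fitted without week 3, left 9 (1523) between weeks 10 and 2. The actin covariate left 0 (0) between weeks 4 and 3, and batch 1 alone gave 3 (369) between weeks 5 and 4. Without 1 array the counts were 12 to 19 between weeks 10 and 2, 15 to 19 between weeks 3 and 2, 5 to 14 between weeks 4 and 3, 0 to 2 between weeks 5 and 4 (2 without week 4 animal 6 or week 5 batch 2 animal 2), 0 between weeks 10 and 5, and 26 to 33 by the F-test. The sign turned for Zfp445 between weeks 3 and 2 with probe sets averaged (0.13), and with days 6 and 7 as 1 term for Zfp651 (-0.092) and Zfp955b (-0.014). The animal number as a replicate block is a pairing the numbers do not bear out. With it the counts were 14 (2148), 19 (2183), 9 (1263), 0 (3) and 0 (2) in the 5 comparisons and 24 (3345) by the F-test. Signal limits Zfp286, Zfp354a, Zfp354c and Zfp467, which lay near the low-value limit.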

Other observations

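Without the scan day 4 arrays, 12 Zfp genes were called between weeks 10 and 2, against 2081 of all 16103 probe sets. Of these 12 genes 11 had the same direction on scan day 4 itself, where 1 array of each age was scanned. The matching share over all genes was not computed. That day's 2 arrays took no part in those calls.

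The within-age SD of the Zfp genes had a median of 0.19 log2 units over the 138 genes, and that of all genes a median of 0.17. Genes of the family left out for low values include Zfp28 and Zfp568, KRAB genes known from mouse embryos, with means of 2.75 and 3.53.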
